A study of Danio rerio with 8 samples.

Results

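Expression of 8 genes of the periocular mesenchyme was followed in the developing zebrafish eye: the homeobox genes *alx1*, *alx4a* and *alx4b*, the forkhead genes *foxc1a* and *foxc1b*, the LIM homeobox gene *lmx1bb*, the transcription cofactor *eya2*, and *myoc*, which encodes the secreted protein myocilin. They were taken by name from the 37114 rows of the gene table, each as its row on one of the numbered chromosomes, and all 8 were found there. RNA was sequenced from 8 pools of about 40 eyes each, collected from embryos at 36 h post fertilization (hpf). The 4 libraries of the first group carry the genotype label *flrt2* mutant and titles beginning with CH1359. According to the study, this line was made with Cas9 and a guide RNA against *flrt2* and bred in the AB background. The 4 libraries of the other group are labelled wildtype (WT) and have titles beginning with AB, a laboratory strain. The study crossed heterozygous carriers to each other to obtain fish for its phenotypic work, but the labels do not say whether the WT libraries came from such crosses. The labels name retina as the tissue where the methods name eyes.

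The periocular mesenchyme is a loose tissue of neural crest and mesodermal cells that migrates between the optic cup, the lens and the surface ectoderm. It gives rise to much of the front of the eye, including the corneal stroma and endothelium, the iris stroma and the tissues that drain the aqueous humour. Alx, Foxc1 and Lmx1b proteins are DNA-binding transcription factors that this mesenchyme uses during its migration and differentiation, Eya proteins act with sine oculis-type homeobox proteins and carry a phosphatase domain, and myocilin is a glycoprotein best known from the drainage tissue of the adult human eye.

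The libraries labelled *flrt2* mutant held 13423932 to 14744977 reads in genes, and the WT libraries held 14394658 to 14835885. The targeted gene, *flrt2*, was not lower in the libraries labelled *flrt2* mutant: it had 2.90, 3.99, 2.80 and 3.80 FPKM (reads scaled to gene length and library size) there, against 2.48, 2.33, 2.25 and 2.55 FPKM in the WT libraries (difference 0.40 on the log2 scale, limma adjusted p = 0.110). The label could not be checked from these values, and the libraries are called by it throughout. The study reported a deletion that ends the protein early and, by RT-qPCR, lower *flrt2* mRNA in brains at an earlier age. Besides the retina, the pools held RNA of other tissues. The summed level of 11 retinal marker genes was 412.0 to 566.4 FPKM in the libraries labelled *flrt2* mutant and 395.7 to 530.5 FPKM in the WT libraries, with *hmx1* at 0 on its chromosome row in all of them. With reads of matching rows on alternate contigs added, *hmx1* was tested and did not pass (log2 fold change -0.63, limma adjusted p = 0.0864). The summed level of 8 surface epithelium markers was 1927 to 3922 FPKM in the libraries labelled *flrt2* mutant and 3627 to 5025 FPKM in the WT libraries. In this sum *krt4* alone held 445.2 to 1024 FPKM in the libraries labelled *flrt2* mutant and 1439 to 1926 FPKM in the WT libraries. With alternate-contig reads added, *krt4* did not differ by the test (log2 fold change -0.17, limma adjusted p = 0.668). The first principal component took 48.4% of the variance and parted the 2 groups.

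All 8 genes passed the filter on low values. Of them, 4 fell in the libraries labelled *flrt2* mutant (*alx1*, *alx4b*, *lmx1bb* and *myoc*), none rose, and 4 did not pass the test (*alx4a*, *foxc1a*, *foxc1b* and *eya2*; limma on log2(FPKM + 0.5), adjusted p under 0.05 over 21012 rows). Over all rows tested, 15.6% passed in either direction, 7.37% were lower and 8.28% were higher. Among annotated genes of the numbered chromosomes, 12.7% passed in either direction and 5.87% were lower. On the log2(FPKM + 0.5) scale the fall was more than 2-fold in *alx1* and *myoc*, against 3.35% of all rows tested, and as a ratio of mean FPKM it was also more than 2-fold in *alx4b*. The log2 fold change was negative in all 8 genes, with a median of -0.44, against -0.01 over all rows tested. The 8 genes were chosen with earlier results of these data known. Their counts and median beside those of all rows are thus a description and no test. In bulk eyes, fewer cells of the mesenchyme and less RNA per cell cannot be told apart.

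**Figure D1:**
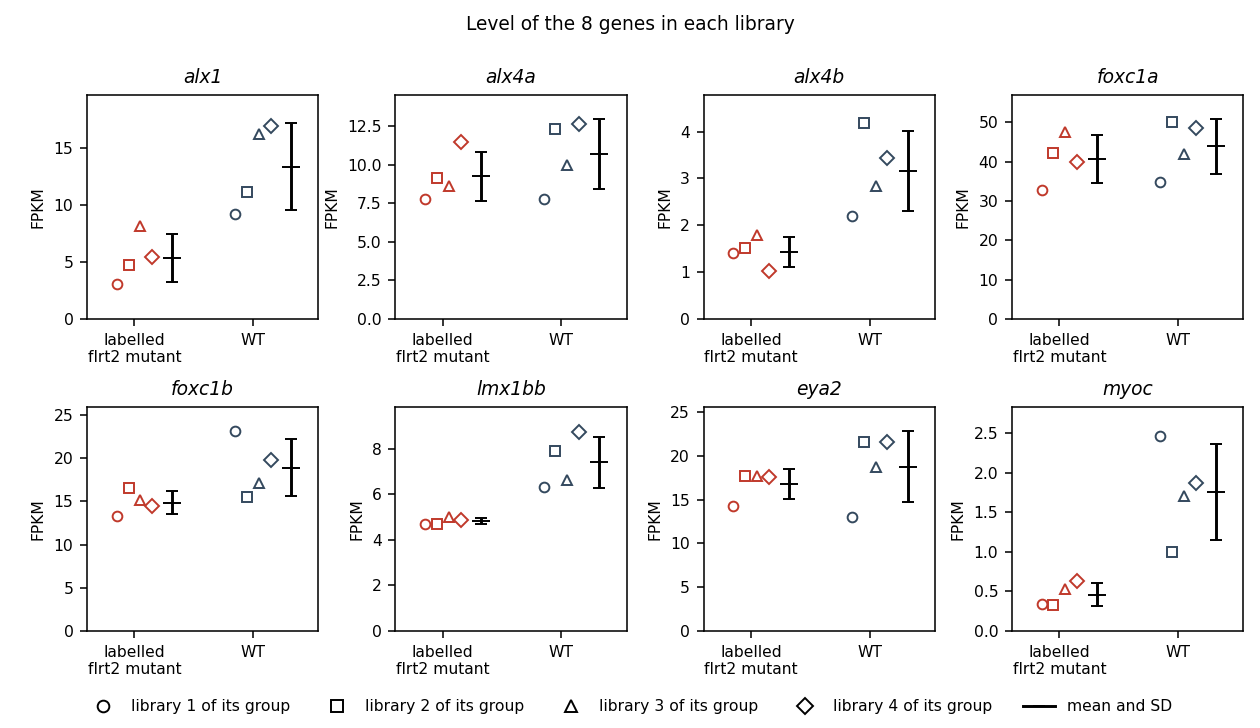
Level of each of the 8 genes in FPKM (y axis, from 0), with the 4 libraries labelled flrt2 mutant on the left and the 4 WT libraries on the right of each panel, 1 symbol per library and the group mean with its SD beside them. The groups do not overlap for alx1, alx4b, lmx1bb and myoc and overlap for the other 4 genes.

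The aristaless-like genes *alx1*, *alx4a* and *alx4b* are expressed in the neural crest of the face and around the eye. The first of them, *alx1* (ENSDARG00000062824, GRCz11 chromosome 18, positions 16246806 to 16254746, plus strand), has a role in the migration of crest cells in zebrafish. It had 3.06, 4.78, 8.18 and 5.49 FPKM in the libraries labelled *flrt2* mutant, against 9.22, 11.1, 16.2 and 16.97 FPKM in the WT libraries. The highest value of the first group stayed below the lowest WT value. The means were 5.38 ± 2.13 FPKM in the libraries labelled *flrt2* mutant and 13.4 ± 3.80 FPKM in the WT libraries (SD, n = 4 each), so that *alx1* stood at 40.2% of its WT level (log2 fold change -1.27, SE 0.27, limma adjusted p = 0.0111). These values rest on 41, 67, 108 and 71 reads in the libraries labelled *flrt2* mutant and on 137, 160, 231 and 252 reads in the WT libraries. A row on an alternate contig of chromosome 18 with a matching description held 3, 8, 14 and 57 more reads in the libraries labelled *flrt2* mutant, against 10, 7, 13 and 5 in the WT libraries. The 57 reads of the fourth library stand far above the others. With these reads added to *alx1*, the log2 fold change was -1.04 and the call was lost (limma adjusted p = 0.0640). The highest value of the libraries labelled *flrt2* mutant was then 9.89 FPKM and the lowest WT value 9.90 FPKM. The groups thus stayed just apart (exact permutation p = 0.0286). The alternate-contig row is 3762 bases long, while these FPKM were scaled to the 963 bases of *alx1* alone. The listed start of the row is 579 bases past the listed end of *alx1*. These 2 positions are on different sequences, the contig and chromosome 18, so the number need not be a distance between them. Whether the reads of this row belong to *alx1* was not tested.

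The paralogues *alx4a* and *alx4b* are both copies of the vertebrate Alx4 gene. *alx4a* (ENSDARG00000088332, chromosome 7, positions 26893688 to 26924903, minus strand) had 7.76, 9.11, 8.63 and 11.4 FPKM in the libraries labelled *flrt2* mutant, against 7.76, 12.3, 9.97 and 12.7 FPKM in the WT libraries. The 2 ranges overlapped almost completely, and the log2 fold change of -0.19 (95% interval -0.57 to 0.20) did not pass (limma adjusted p = 0.522). *alx4b* (ENSDARG00000074442, chromosome 18, positions 38321039 to 38364462, plus strand) was the less abundant copy, at 1.41, 1.52, 1.79 and 1.02 FPKM in the libraries labelled *flrt2* mutant, against 2.20, 4.19, 2.83 and 3.44 FPKM in the WT libraries. These ranges did not overlap. Its mean of 1.44 ± 0.319 FPKM in the libraries labelled *flrt2* mutant was 45.4% of the 3.17 ± 0.851 FPKM in the WT libraries (SD, n = 4 each; log2 fold change -0.90, SE 0.21, limma adjusted p = 0.0147). It rests on 28 to 50 reads per library labelled *flrt2* mutant and on 69 to 127 reads per WT library.

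*foxc1a* and *foxc1b* are the zebrafish copies of Foxc1, a forkhead factor of the periocular mesenchyme and of developing vessels, and *foxc1a* was the most abundant of the 8 genes. *foxc1a* (ENSDARG00000091481, chromosome 2, positions 686873 to 689047, minus strand) had 32.9, 42.2, 47.5 and 39.9 FPKM in the libraries labelled *flrt2* mutant, against 34.8, 50.2, 42.0 and 48.6 FPKM in the WT libraries. The groups overlapped, and the log2 fold change of -0.11 (95% interval -0.43 to 0.22) did not pass (limma adjusted p = 0.679). *foxc1b* (ENSDARG00000055398, chromosome 20, positions 26702377 to 26704331, plus strand) had 13.3, 16.6, 15.2 and 14.4 FPKM in the libraries labelled *flrt2* mutant, against 23.1, 15.5, 17.1 and 19.8 FPKM in the WT libraries. The overlap came from WT library 2, which was below library 2 labelled *flrt2* mutant. Its log2 fold change was -0.32 (95% interval -0.62 to -0.03), and its adjusted p of 0.138 by limma missed the threshold. An exact permutation test of *foxc1b* gave p = 0.0571 (two-sided), where the smallest p that 4 libraries against 4 allow is 0.0286.

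*lmx1bb* (ENSDARG00000068365, chromosome 8, positions 33258580 to 33381913, minus strand) is a copy of Lmx1b, which the zebrafish periocular mesenchyme needs for its survival and migration around the eye. It had 4.72, 4.70, 5.01 and 4.85 FPKM in the libraries labelled *flrt2* mutant, against 6.31, 7.91, 6.65 and 8.75 FPKM in the WT libraries. The 4 libraries labelled *flrt2* mutant lay very close together and all below the WT range. The mean was 4.82 ± 0.143 FPKM in the libraries labelled *flrt2* mutant, 65.1% of the 7.41 ± 1.13 FPKM in the WT libraries (SD, n = 4 each; log2 fold change -0.56, SE 0.13, limma adjusted p = 0.0161). The call was lost without WT library 4 (log2 fold change -0.48, adjusted p = 0.0504) and in the fit with the replicate block (log2 fold change -0.62, adjusted p = 0.0567).

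*eya2* (ENSDARG00000018984, chromosome 6, positions 55909795 to 55997350, minus strand) encodes one of the Eya cofactors. It had 14.3, 17.8, 17.7 and 17.6 FPKM in the libraries labelled *flrt2* mutant, against 13.0, 21.6, 18.7 and 21.6 FPKM in the WT libraries. In both groups library 1 was the lowest, and the ranges overlapped. The log2 fold change of -0.13 (95% interval -0.49 to 0.23) did not pass (limma adjusted p = 0.656).

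The largest difference as a ratio of means was that of *myoc* (ENSDARG00000021789, chromosome 20, positions 15015557 to 15021628, plus strand), the only one of the 8 genes that encodes a secreted protein. It had 0.346, 0.331, 0.526 and 0.626 FPKM in the libraries labelled *flrt2* mutant, against 2.47, 0.995, 1.71 and 1.87 FPKM in the WT libraries. No library labelled *flrt2* mutant reached the lowest WT value. The means were 0.457 ± 0.144 FPKM in the libraries labelled *flrt2* mutant and 1.76 ± 0.606 FPKM in the WT libraries (SD, n = 4 each), a level of 25.96% of WT. The log2 fold change was -1.21 (SE 0.23, limma adjusted p = 0.00574) on the scale with 0.5 added, which understates the change of a gene as low as this. It was -1.71 with 0.1 added and -1.90 by voom on the reads. Only 12, 12, 18 and 21 reads of *myoc* were counted in the libraries labelled *flrt2* mutant, against 95, 37, 63 and 72 in the WT libraries.

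**Figure D2:**
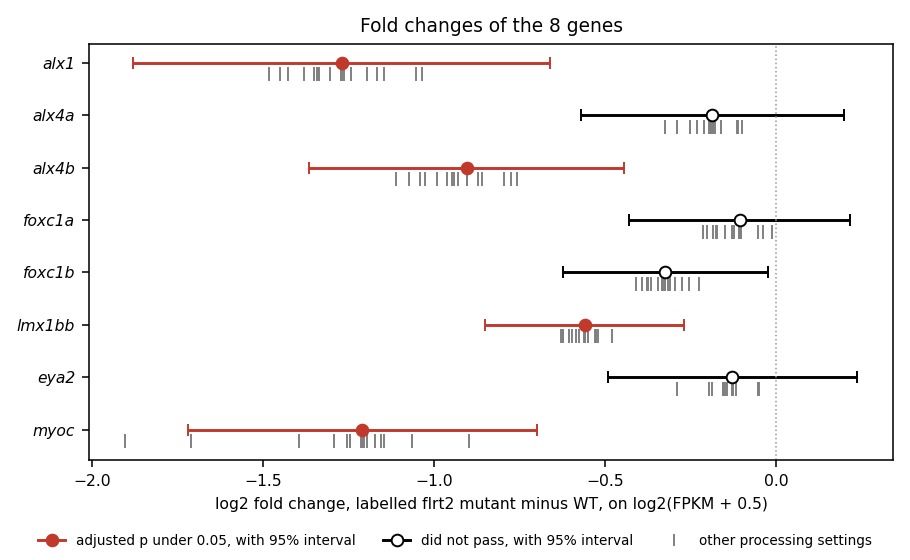
Log2 fold change of the 8 genes, libraries labelled flrt2 mutant minus WT, on log2(FPKM + 0.5) (x axis), with 95% intervals as bars and grey ticks for the value under each other processing setting. Filled red points (alx1, alx4b, lmx1bb and myoc) passed the test and every tick lies below 0.

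The exact permutation test, run on each gene alone, reached its smallest p of 0.0286 for *alx1*, *alx4b*, *lmx1bb* and *myoc*, and for none of the other 4. This held under all 3 scalings of the libraries (FPKM as given, columns set to one sum, and reads over the library's read total). The ranges of the 2 groups were apart, with the libraries labelled *flrt2* mutant lower, for these 4 genes, against 9.76% of all rows tested. With 4 libraries against 4, the smallest p only restates that the ranges were apart. It uses the same values as the limma test and was not adjusted for the number of genes. Since the genes were chosen with earlier results of these data known, it is no separate support for the falls.

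Ordered by level per length in the libraries labelled *flrt2* mutant, *foxc1a* came first (40.6 FPKM), followed by *eya2* (16.8), *foxc1b* (14.9), *alx4a* (9.23), *alx1* (5.38), *lmx1bb* (4.82), *alx4b* (1.44) and *myoc* (0.457). The ranges of *eya2* and *foxc1b* overlapped, as did those of *alx4a* and *alx1* and of *alx1* and *lmx1bb*. In the WT libraries the order was *foxc1a* (43.9 FPKM), *foxc1b* (18.9), *eya2* (18.7), *alx1* (13.4), *alx4a* (10.7), *lmx1bb* (7.41), *alx4b* (3.17) and *myoc* (1.76). There only *foxc1a* and the step between *lmx1bb* and *alx4b* were apart from their neighbours. The order of *alx1* and *alx4a* thus differed between the groups, *alx1* having the lower mean in the libraries labelled *flrt2* mutant and the higher mean in the WT libraries. In mean level over all 8 libraries, *foxc1a* was above 93.3% of all rows tested and *myoc* above 17.3%.

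Ratios between paralogues in the same library do not depend on how libraries were scaled. They were examined after the data were seen and use the same values as the tests above. Their p-values, adjusted or not, are thus no separate support for the falls of *alx4b* and *lmx1bb*. The ratio of *alx4b* to *alx4a* in FPKM was 0.182, 0.167, 0.208 and 0.0895 in the libraries labelled *flrt2* mutant, against 0.284, 0.341, 0.284 and 0.272 in the WT libraries. The groups were apart (difference of log2 ratios -0.93, exact permutation p = 0.0286, adjusted over 3 ratios 0.0429). The ratio of *lmx1bb* to its paralogue *lmx1ba* was 0.836, 0.941, 1.05 and 0.954 in the libraries labelled *flrt2* mutant, against 1.37, 1.096, 1.16 and 1.42 in the WT libraries. Here too the groups were apart (difference -0.41, exact permutation p = 0.0286, adjusted 0.0429). *lmx1ba* itself had 5.13 ± 0.369 FPKM in the libraries labelled *flrt2* mutant and 5.94 ± 1.08 FPKM in the WT libraries (SD, n = 4 each) and did not pass the test. The ratio of *foxc1b* to *foxc1a* was 0.319 to 0.404 in the libraries labelled *flrt2* mutant and 0.310 to 0.665 in the WT libraries, and overlapped (difference -0.23, exact permutation p = 0.400). Since reads of similar copies can be divided between them, the copies were also summed, though how alike they are was not examined. Of the reads of *alx4a* and *alx4b* together, *alx4b* held 3.56 to 7.90% in the libraries labelled *flrt2* mutant and 10.1 to 12.3% in the WT libraries. Their sum thus mostly follows *alx4a* and cannot decide whether *alx4b* changed. The sum of *alx4a* and *alx4b* was 47.9 ± 7.83 reads per 1000000 reads in the libraries labelled *flrt2* mutant and 61.0 ± 13.0 in the WT libraries (SD, n = 4 each; exact permutation p = 0.171), and that of *foxc1a* and *foxc1b* was 115.8 ± 13.0 in the libraries labelled *flrt2* mutant and 137.1 ± 12.5 in the WT libraries (exact permutation p = 0.0571). Unlike the ratios, these sums depend on the scaling. Summed as deposited FPKM, the exact permutation p was 0.171 for *alx4a* and *alx4b* and 0.143 for *foxc1a* and *foxc1b*.

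**Figure D3:**
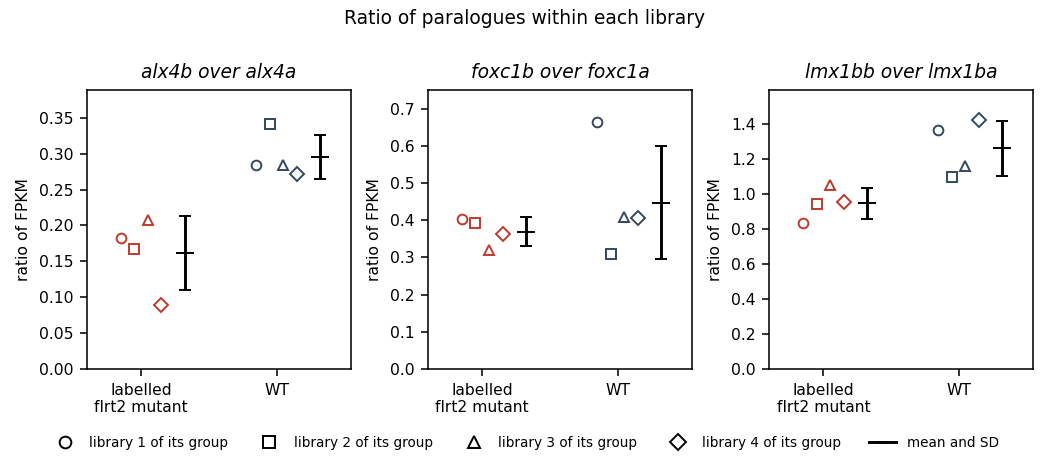
Ratio of the FPKM values of 2 paralogues within each library (y axis, from 0), with libraries labelled flrt2 mutant left of WT libraries, 1 symbol per library and the mean with its SD. The groups are apart for alx4b over alx4a and for lmx1bb over lmx1ba and overlap for foxc1b over foxc1a.

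Within the groups, the low libraries were partly shared between genes. WT library 1 was the lowest WT library for *alx1*, *alx4a*, *alx4b*, *foxc1a*, *lmx1bb* and *eya2*, and the highest for *foxc1b* and *myoc*. Library 1 labelled *flrt2* mutant, whose title has the same suffix, was the lowest of its group for *alx1*, *alx4a*, *foxc1a*, *foxc1b* and *eya2*. WT library 4 was the highest WT library for *alx1*, *alx4a*, *lmx1bb* and *eya2*. Pearson correlations over the 8 libraries, after the group means were taken out, are given as a description. The value was 0.903 between *foxc1a* and *eya2* and 0.877 between *alx4a* and *eya2*. It was 0.303 to 0.903 over all pairs of the 6 genes other than *foxc1b* and *myoc*. Between these 6 genes and *foxc1b* it was -0.476 to 0.0117, and between them and *myoc* -0.76 to 0.189. *foxc1b* and *myoc* had 0.704 with each other. Each point is 1 library, whose depth and tissue content all genes share, and no p was computed. Without WT library 1, the 4 genes that fell still passed the test and the other 4 still did not (limma adjusted p = 0.0149 for *myoc* and 0.280 for *foxc1b*). In that library the summed level of 8 lens markers was 1068 FPKM, the lowest of all, against 1730 to 2726 FPKM in the other WT libraries. The summed level of 8 arch cartilage markers was 127.0 FPKM there, against 57.7 to 102.3 FPKM in the other WT libraries, and that of 22 other crest and mesenchyme genes was 373.6 FPKM, the highest of all 8 libraries. Of these 22 genes, *tfap2a* had 94.3 FPKM in WT library 1, against 45.35 to 60.5 FPKM in the other WT libraries. *tfap2b* had 32.7 FPKM, against 6.24 to 11.4 FPKM. The high sum thus need not hold for the list as a whole. The part of these tissues in the levels of the 8 genes was not tested.

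**Figure D4:**
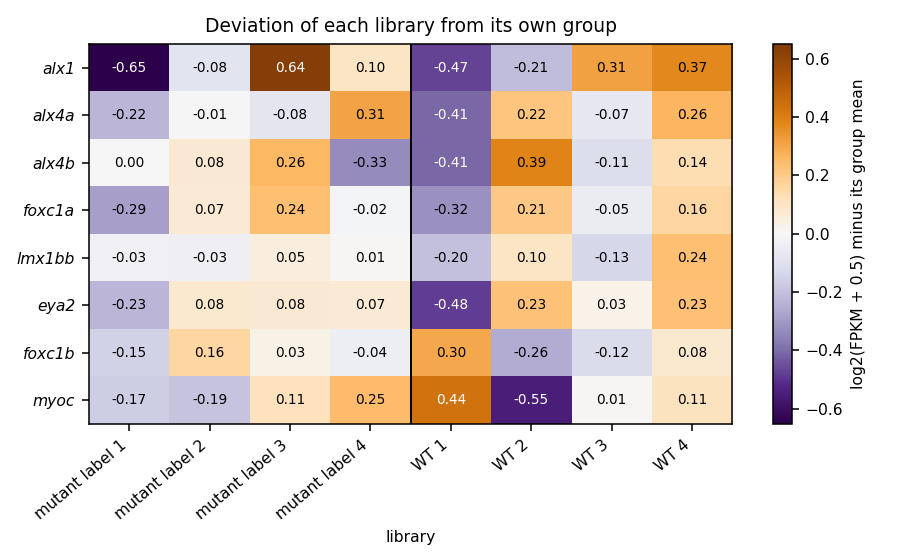
Deviation of each library from the mean of its own group, on log2(FPKM + 0.5) (colour and printed value), for the 8 genes (rows) and the 8 libraries (columns, those labelled flrt2 mutant left of the line and WT right of it). In WT 1 the upper 6 genes are all negative, with eya2 at -0.48, while foxc1b (0.30) and myoc (0.44) are positive.

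Genes next to the 8 genes were counted, because the share of changed genes differed between chromosomes. Within 1 Mb of *alx1*, 26 other annotated genes were tested, of which 13 were lower and 2 higher in the libraries labelled *flrt2* mutant. That is 57.7%, against 19.6% of the tested genes of chromosome 18, and their median log2 fold change was -0.51. With reads of matching alternate-contig rows added, 5 of the 26 were called, 2 lower and 3 higher. The nearest genes on each side, named after their values were seen, were *slc6a15*, an amino acid transporter gene (log2 fold change -1.54 as deposited, limma adjusted p = 0.00398, and -0.98 with these reads, adjusted p = 0.0713), and *rassf9* (log2 fold change -0.01 both ways, adjusted p = 0.983). No alternate-contig row matched any other of the 8 genes. Around *alx4b*, on the same chromosome, 2 of 14 neighbours were called (14.3%, against 19.6%), and around *lmx1bb* none of 13 was, against 13.0% of the tested genes of chromosome 8. The counts were 7 of 44 near *alx4a* (15.9%, against 10.2% on its chromosome), 3 of 38 near *foxc1a* (7.89%, against 10.1%) and 1 of 15 near *eya2* (6.67%, against 13.3%). Near *myoc*, 3 of 17 neighbours were called, all lower (17.6%, against 11.4% of the tested genes of chromosome 20). *myoc* lies 3.92 Mb from *flrt2* on chromosome 20 and *foxc1b* 15.6 Mb. Near *foxc1b*, 9 of 35 neighbours were called, 2 lower and 7 higher (25.7%, against 11.4% of the tested genes of chromosome 20). With alternate-contig reads added, 2 of the neighbours of *myoc* and 6 of those of *foxc1b* were called, the 6 being 2 lower and 4 higher. The shares per chromosome were counted on the deposited rows alone. They do not apply to these counts or to the 5 of 26 near *alx1*. Any difference of genetic background between the CH1359 and AB libraries at these places and the difference of genotype cannot be told apart.

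**Figure D5:**
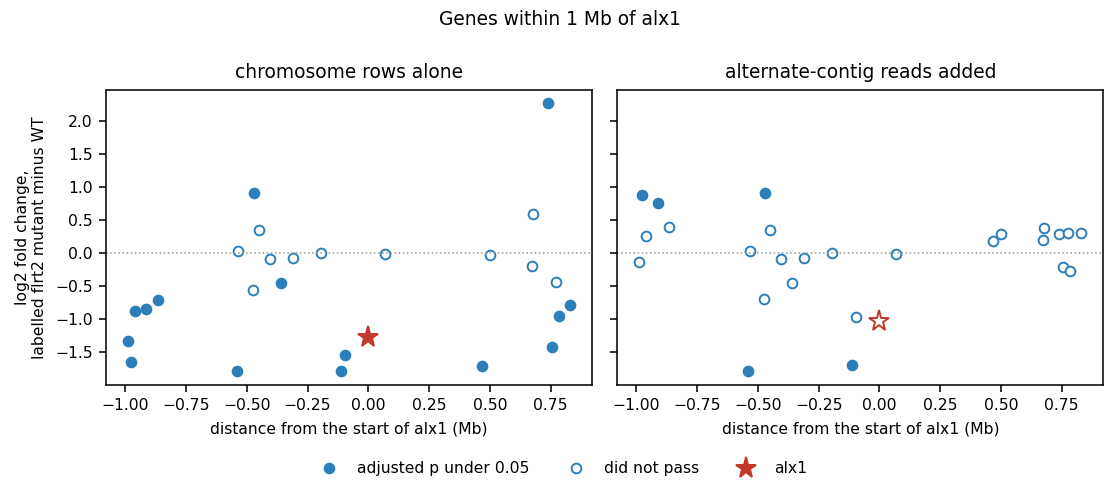
Log2 fold change, libraries labelled flrt2 mutant minus WT (y axis), of the 26 tested genes within 1 Mb of alx1 by distance from its start (x axis, Mb), on chromosome rows alone (left) and with reads of matching alternate-contig rows added (right). Filled symbols passed at an adjusted p under 0.05: 15 neighbours and alx1 itself on the left, and 5 neighbours on the right, where alx1 (open star) no longer passed.

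Other genes of the mesenchyme and its neural crest source gave a mixed picture. Of 22 such genes, 21 were tested, of which 4 fell (*twist1b*, *foxd3*, *foxf2a* and *eya1*), 1 rose (*foxf2b*) and 16 did not pass. Over all rows tested, 7.37% were lower and 8.28% higher. The median log2 fold change of the 21 was -0.33, against -0.01 over all rows tested. *twist1b*, a bHLH factor of crest mesenchyme, had 6.52 ± 2.03 FPKM in the libraries labelled *flrt2* mutant and 11.4 ± 2.87 FPKM in the WT libraries (SD, n = 4 each; log2 fold change -0.78, limma adjusted p = 0.0338). *foxd3*, a forkhead factor of premigratory crest, fell by 0.46 on the log2 scale (limma adjusted p = 0.0459). So did *foxf2a*, which lies close to *foxc1a* on chromosome 2 (log2 fold change -0.46, limma adjusted p = 0.0381). Its paralogue *foxf2b*, close to *foxc1b* on chromosome 20, went the other way, at 4.19 ± 0.873 FPKM in the libraries labelled *flrt2* mutant and 2.58 ± 0.111 FPKM in the WT libraries (SD, n = 4 each; log2 fold change 0.59, limma adjusted p = 0.0345). This call was lost in 9 of 21 alternatives, among them the replicate block (adjusted p = 0.111), equal column sums (adjusted p = 0.0735) and the omission of any one WT library or of library 2, 3 or 4 labelled *flrt2* mutant. Of the 4 falls, that of *foxd3* was lost in 14 of 21 alternatives, *foxf2a* in 9, *eya1* in 8 and *twist1b* in 7. The count of falls was not stable. It was 1 with the replicate block and 0 with no filter. It was also 0 without any one of WT library 4 and libraries 1 and 2 labelled *flrt2* mutant. Widely used mesenchyme genes did not pass, among them *prrx1a* (log2 fold change -0.35, limma adjusted p = 0.0682) and *twist2* (-0.84, adjusted p = 0.0661), which were nearest to the threshold. Others lay near 0, such as *snai1b* (-0.02) and *dlx2a* (0.03). *twist1a*, the more abundant paralogue of *twist1b*, had 20.6 ± 4.50 FPKM in the libraries labelled *flrt2* mutant and 21.4 ± 3.84 FPKM in the WT libraries (log2 fold change -0.07, limma adjusted p = 0.851).

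Among 14 tested paralogues of the 8 genes, 4 fell, none rose and 10 did not pass, with a median log2 fold change of -0.26, against 7.37% lower and a median of -0.01 over all rows tested. One of the 4, *eya1*, is also among the falls of the crest and mesenchyme genes. Of the Eya genes, *eya1* fell by 0.60 on the log2 scale (limma adjusted p = 0.0360) and *eya4* fell by 0.85 (adjusted p = 0.0230), while *eya3* stood at 0.15 and, like *eya2*, did not pass. Of the olfactomedin genes related to *myoc*, *olfml3a* fell to 1.36 ± 0.113 FPKM in the libraries labelled *flrt2* mutant, against 3.26 ± 0.703 FPKM in the WT libraries (SD, n = 4 each; log2 fold change -0.99, limma adjusted p = 0.00363), and *olfml2a* fell by 0.57 on the log2 scale (adjusted p = 0.0440). The number of falls among these paralogues was 1 to 3 with 1 library left out and 2 with no filter. It was 2 with the replicate block, where *eya1* (limma adjusted p = 0.0683) and *olfml2a* (adjusted p = 0.0823) were lost. Over 21 alternatives the call was lost in 11 for *olfml2a*, 8 for *eya1*, 4 for *eya4* and 0 for *olfml3a*.

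The sine oculis-type homeobox, Dach and Ldb genes encode partners of Eya and LIM homeobox proteins. Of 14 tested, none fell and 1 rose, against 7.37% lower and 8.28% higher over all rows tested. In 4 of 21 alternatives 1 of them fell, among these equal column sums and the omission of WT library 2. The gene that rose was *ldb2b*, which had 419 reads over the libraries labelled *flrt2* mutant and 6 over the WT libraries (log2 fold change 2.02, limma adjusted p = 0.000106). It had 1.08 to 2.01 FPKM in the libraries labelled *flrt2* mutant and 0 to 0.0425 FPKM in the WT libraries. *ldb2b* thus passed the filter of 0.5 FPKM only through the group where it was high, and its rise is a description. With so few WT reads the log2 fold change depends on what is added before the logarithm: it was 3.82 with 0.1 added and 6.13 by voom. With alternate-contig reads added it was 1.74 (limma adjusted p = 0.00224). Of 14 tested stromal matrix genes, a list not limited to genes of the cornea and sclera, none passed in either direction. Their median log2 fold change was -0.34. Their smallest adjusted p values were those of *fn1a*, a fibronectin (log2 fold change -0.52, limma adjusted p = 0.0717, but -0.16 and adjusted p = 0.525 with alternate-contig reads added), *aspn* (-1.08, adjusted p = 0.0724) and the keratocan gene *kera* (-0.71, adjusted p = 0.0847). The summed level of the matrix genes was 470.6 to 985.8 FPKM in the libraries labelled *flrt2* mutant and 853.8 to 989.0 FPKM in the WT libraries. The count of 0 falls among the matrix genes changed in 6 of 21 alternatives. It was 3 without WT library 2, and 2 with array weights or without library 4 labelled *flrt2* mutant.

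Markers of other tissues in the pools were set beside these results. The shares over all rows tested were 7.37% lower and 8.28% higher. Blood markers moved most: 4 of 7 tested fell (*hbbe1.1*, *hbbe2*, *hbbe3* and *hbae3*, all globin genes) and none rose, with a median log2 fold change of -1.08. Their summed level was 674.2 to 1479 FPKM in the libraries labelled *flrt2* mutant and 1578 to 2654 FPKM in the WT libraries, with no overlap. With alternate-contig reads added, *hbbe1.1* and *hbae3* still passed. The lens list had 2 of 8 lower (*cryaa* and *mipa*), the endothelium list 1 of 8 (*egfl7*), the muscle list 1 of 6 (*ckma*, with *mylpfa* at 0), the surface epithelium list 1 of 6 (*krt4*) and the retina list 1 of 10 lower (*six6b*) and 1 of 10 higher (*six3a*). With alternate-contig reads added, *cryaa*, *mipa*, *krt4* and *six3a* no longer passed, and *mipa* (log2 fold change 0.29) and *six3a* (-0.13) changed sign. In the surface epithelium list *epcam*, below the filter on its chromosome row, then passed as higher in the libraries labelled *flrt2* mutant (log2 fold change 1.73, limma adjusted p = 0.000183). None of 6 arch cartilage, 9 brain (*gbx2* at 0), 6 pigment epithelium, 4 pigment crest and 3 macrophage markers passed in either direction. The median log2 fold change was -0.46 in the muscle list and -0.38 in the arch cartilage list, near that of the 8 genes (-0.44). It was -0.20 for pigment crest, -0.18 for surface epithelium and -0.08 for endothelium. In the pigment epithelium, macrophage, lens, retina and brain lists it was 0.07 to 0.24. The part of these tissues in the levels of *alx1*, *alx4b*, *lmx1bb* and *myoc* was not tested.

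The rows whose pattern over the 8 libraries was most like that of each gene were found among 14388 named rows of at least 1 FPKM, as a description with no p. For *alx1* they were *dap1b* (Pearson r of log2 values 0.990), *jak2a* (0.979) and the claudin gene *cldn11a* (0.973). For *alx4b* the nearest were *sh3glb1b* (0.993) and the claudin gene *cldn19* (0.975), for *lmx1bb* *tuft1a* (0.981) and *galk1* (0.961), and for *myoc* *asb8* (0.996), *mpp6b* (0.981) and *gpm6ba* (0.981). These r include the difference between the groups and were picked as the highest of 14388 over 8 libraries. With group means taken out, r was 0.968 for *dap1b*, 0.974 for *sh3glb1b*, 0.901 for *tuft1a* and 0.980 for *asb8*. *asb8* itself did not pass (log2 fold change -0.26, limma adjusted p = 0.209). Among the 4 genes that did not pass, *foxc1a* was most like *tgm1l4* (0.989), *alx4a* was close to *jcada* (0.970), *foxc1b* most like *dnaja1* (0.977) and *gnb2* (0.975), and *eya2* most like CABZ01059119.1 (0.962) and *tln1* (0.961). None of the 8 genes was among the nearest rows of another.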

How the data were processed

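RNA of about 40 pooled eyes per library was sequenced at 36 hpf as 150 bp pairs in 4 libraries labelled *flrt2* mutant and 4 WT libraries. The authors aligned reads to GRCz11 with HISAT2 2.0.5, used featureCounts 1.5.0-p3 for gene counts and deposited a single table, in FPKM, which was used here. Multiplied by gene length and a size for each library, 100% of its values were whole reads (tolerance 1e-06). This size was 0.930 to 1.07 times the sum of these reads per library, a factor the sources used here do not describe.

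The authors used DESeq2, which was not run here on the recovered reads, though voom was, as an alternative. The main test stayed on the deposited scale. Rows that reached 0.5 FPKM in 4 or more of the 8 libraries entered it as log2(FPKM + 0.5). It used limma 3.58.1 in R 4.3.3 (intensity trend, robust prior), with Benjamini-Hochberg adjustment over 21012 rows and calls at 0.05. Fits were tested on simulated data. Single genes and ratios had two-sided exact permutation tests over the libraries. Alternate-contig rows were matched to a gene by name or protein description, chromosome and position within 0.2 Mb. Tables and figures used Python 3.11.15, numpy 2.4.6, pandas 2.3.3 and matplotlib 3.10.9. Nothing says that pools came from separate clutches, so p-values measure only the spread between these libraries. Intervals cover that spread alone.

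The 8 genes and all other lists were chosen with earlier results of these data known, and some listed genes are not reported here. Named genes were these 8, *flrt2*, called list members or otherwise up to 4 with the smallest p, and the 3 rows most like each gene. Some others, among them *twist1a*, *tfap2a* and *tfap2b*, were named after their values were seen. Alternatives were other pseudocounts (0.1 and 1), filters, scalings, priors and weights, voom, alternate-contig reads, annotated genes alone, each library left out, and a replicate block. The title suffixes 12_16, 1_19 and 1_8_ysy occur in both groups. Deviations from group means correlated across genes with r of 0.141, 0.122 and 0.106 for libraries of like suffix and -0.223 to 0.112 for all others, so the suffix was treated as pairing in that alternative. The other 2 libraries have no partner in it.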

Additional observations from a re-analysis of the deposited data

Results flagged for a closer look

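In *eya2*, library 1 labelled *flrt2* mutant stood apart from the other 3 of its group, at 14.28 FPKM against 17.6 to 17.8 FPKM. It was found among 18 groups of 4 libraries (the 8 genes and *flrt2* in both groups), of which chance alone would mark about 5%. WT library 1, with the same title suffix, was also the lowest of its group, at 13.0 FPKM. The cause was not tested.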

How the results depend on the processing

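The number of the 8 genes that fell was 4 in most alternatives and 3 with the replicate block (*lmx1bb* lost, log2 fold change -0.62), with alternate-contig reads (*alx1* lost), without WT replicate 4 (*lmx1bb* lost) and with a filter at 1 FPKM, under which *myoc* was not tested. All 8 kept a negative log2 fold change in every alternative. The replicate block changed no other call among the 8 genes. The higher level of *flrt2* was 0.35 on the log2 scale with columns set to one sum and 0.35 on reads over the read total, both at an exact permutation p of 0.0857, against 0.0286 as deposited. Over all alternatives the log2 fold change was -1.48 to -1.04 for *alx1*, -1.11 to -0.76 for *alx4b*, -0.63 to -0.48 for *lmx1bb* and -1.90 to -0.90 for *myoc*. Depth limits *myoc* and *alx4b* most, with 63 and 163 reads over the 4 libraries labelled *flrt2* mutant. The causes of these shifts were not tested.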
